A study of Mus musculus with 12 samples.

Results

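The genes described here are the small nucleolar RNA (snoRNA) and small Cajal body RNA (scaRNA) genes of a mouse total RNA count table. They are all rows whose symbol begins with Snora, Snord or Scarna followed by a digit. That rule found 119 of the 49489 rows, namely 76 Snord, 37 Snora and 6 Scarna genes, and it used the names alone. Of the 119 genes, 95 had a count above 0 in at least 1 library, 24 had no count in any library and 23 held enough counts to be tested. Only 3 of the 119, Snord47, Snord78 and Snord80, lie within Gas5.

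SnoRNAs are short stable RNAs that work in the nucleolus with a fixed set of proteins. Box C/D snoRNAs, most of the Snord genes, pair with a target RNA and place ribose methylation on it, while H/ACA snoRNAs, the Snora genes, direct pseudouridylation, and most targets are ribosomal RNAs. ScaRNAs carry the same boxes, sit in Cajal bodies and guide modification of the RNAs of the spliceosome. Most mammalian snoRNAs are cut from introns of host genes, many of which encode ribosomal proteins or translation factors, and Gas5 is a noncoding host whose introns carry box C/D snoRNAs.

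Primary hippocampal neurons of newborn mice were cultured to day 16 in vitro, and RNA of a Gas5 pulldown gave total RNA and small RNA libraries. The titles give 3 antisense and 3 sense libraries for total RNA, the assay used here. They do not say whether antisense and sense name a probe or a bait, nor which is the control, and no strain, genotype or treatment is given in the sources used here. The labels leave unsaid whether libraries of 1 group are separate cultures, so a p-value here weighs only library-to-library spread, which may be technical.

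Antisense libraries held 5775052 to 6293093 counts and sense libraries 6478779 to 10424167. Gas5, the RNA named in the title of the series, took 9.71%, 14.2% and 10.8% of the antisense counts and 57.1%, 32.7% and 46.1% of the sense counts. Levels are CPM, counts relative to the library total, scaled by TMM (trimmed mean of M-values), a scaling that leaves the median log2 fold change of all 20049 tested genes, antisense minus sense, at -0.01. All 7 neuronal markers were counted, and their summed level was 813 to 1040 CPM in antisense and 1032 to 1290 CPM in sense. The 4 astrocyte markers reached 770 to 969 CPM in antisense and 877 to 1136 CPM in sense, so astrocyte RNA lay beside neuronal RNA in every library. Oligodendrocyte lineage markers (4) reached 184 to 212 and 203 to 265 CPM, microglia markers (4) 14.6 to 18.3 and 8.12 to 9.998 CPM, and vascular and fibroblast markers (3) 25.2 to 31.2 and 29.9 to 38.2 CPM. The microglia sums did not overlap between groups. At an edgeR adjusted p under 0.05, 1 of 3 tested microglia markers was higher in antisense and 1 of 4 astrocyte markers lower. No marker on the other lists passed, against 18.2% higher and 4.35% lower of all tested genes. The part of these other cell types in the results below was not tested.

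The snoRNAs of the Gas5 introns had no count in any library, antisense or sense. RefSeq places 8 snoRNA genes inside the Gas5 span, chromosome 1 from 161034601 to 161038539 (GRCm38.p6). Snord47, at 161038092 to 161038156, has a row of that name. The Entrez gene numbers of the authors' deposited table pair 2 of the others with the rows Snord78 (161036984 to 161037049) and Snord80 (161037601 to 161037681). They pair the remaining 5 with Gm26224 (161035394 to 161035473), Gm22489 (161035850 to 161035911), Gm22357 (161036057 to 161036139), Gm23212 (161036682 to 161036741) and Gm25789 (161038308 to 161038383), rows that the naming rule leaves out. Each of the 8 rows stood at 0 in all 6 libraries.

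The host of these snoRNAs was counted 564204, 893566 and 626081 times in the antisense libraries and 5954870, 2116204 and 3502645 times in the sense libraries. The groups did not overlap, and Gas5 had a log2 difference of -2.78 (SE 0.286; edgeR adjusted p = 3.76e-06). The absence of counts for the intronic snoRNAs was therefore measured beside 564204 or more counts of the host in every library. A count of 0 allows up to 3 counts, which is 0.385 to 0.402 CPM per antisense library and 0.467 to 0.514 CPM per sense library. These limits cover counting error only. No difference between the groups was detectable for these genes at this depth.

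The 8 Gas5 snoRNAs are 60 to 83 bases long in RefSeq, and other genes of that RefSeq length were counted. Most of the 8 rows fall outside the naming rule. Of 1382 rows of any length outside that rule that the authors' deposited table labels snoRNA or scaRNA, 600 had a count. Of 37 other members of 60 to 83 bases, 30 had a count and 7 had none, with a median of 13 counts summed over the 6 libraries. Of those 37, 2 passed the filter on low counts, Scarna2 with 42175 counts and Scarna10 with 19660. Whether their RefSeq spans, 61 and 71 bases, cover the whole RNA is not known here. They are therefore not taken as RNAs of the same length as the Gas5 snoRNAs. Over all 111 members with a RefSeq position, the median count was larger in the longer size classes. The 55 genes under 80 bases had a median of 9 counts, with 14 at 0. The 28 genes of 80 to 119 bases had a median of 10.95 counts, with 6 at 0. All 28 genes of 120 bases or more were counted, with a median of 71.7, and 16 of them were tested. Lengths are those of RefSeq, and the transcript models used for counting are unknown here, so levels of different genes are not ranked per length. Whether library preparation or counting lost short RNAs was not tested.

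**Figure D1:**
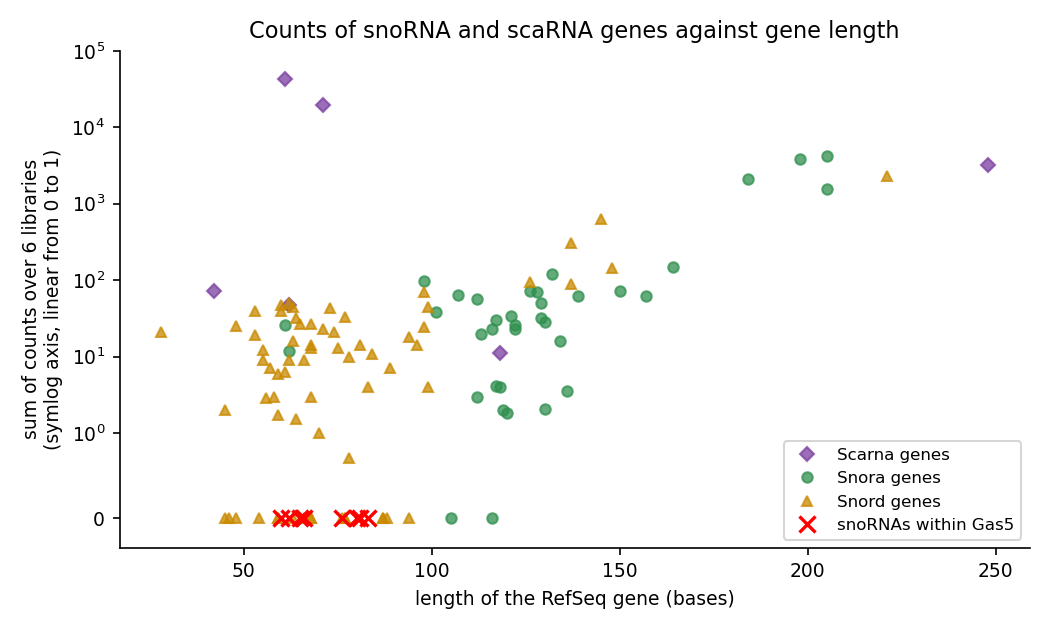
Sum of counts over the 6 libraries (vertical, symlog axis, linear from 0 to 1) against RefSeq gene length in bases for members with a position, by class, with crosses for the 8 snoRNAs within Gas5. All 8 crosses sit at 0, Scarna2 and Scarna10 lie far above other genes of their RefSeq length, and the genes of 120 bases or more are all above 0.

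The scaRNA genes held most of the counts and both genes that passed the test. Together the 6 Scarna genes took 72.3% of all member counts, Scarna2 alone 46.8% and Scarna10 21.8%. Of the 3 tested, Scarna2 and Scarna6 were lower in antisense than in sense and Scarna10 did not pass. For all tested genes the shares were 4.35% lower and 18.2% higher.

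Scarna2 guides ribose methylation of the U2 spliceosomal RNA. It lies on chromosome 3 from 108554342 to 108554402 (GRCm38.p6) and RefSeq shows no gene around it. Its level was 833, 742 and 503 CPM in the antisense libraries and 1420, 933 and 1944 CPM in the sense libraries. All 3 sense libraries were above all 3 antisense libraries. These are levels in pulldown RNA, where recovery in the pulldown, cells of a type and RNA per cell cannot be told apart. Group means were 692 ± 170 CPM and 1432 ± 506 CPM (SD, n = 3 each), so Scarna2 was 2.07-fold higher in sense (log2 fold change -1.05, SE 0.215; edgeR adjusted p = 0.00177). The counts themselves were 6332, 5774 and 3755 in antisense and 8978, 5986 and 11350 in sense, all whole numbers. Scarna2 passed whichever library was left out (log2 fold change -1.28 to -0.77), and its log2 fold change was negative in all 14 settings tried. On library totals alone, where the median of all genes was 0.70, it was -0.30 and did not pass (adjusted p = 0.249).

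Scarna6, which lies inside the autophagy gene Atg16l1 (chromosome 1, 87784571 to 87784818), differed by less. It stood at 56.9, 56.8 and 85.5 CPM in antisense against 88.9, 81.3 and 108 in sense. The groups overlapped, because antisense replicate 3 was above sense replicate 2. The means were 66.4 ± 16.5 and 92.9 ± 14.0 CPM (SD, n = 3 each), and the log2 fold change was -0.48 with an SE of 0.151 (edgeR adjusted p = 0.0305). The call was lost when antisense replicate 1 or 2 or sense replicate 3 was left out (adjusted p = 0.133, 0.115 and 0.155). It was also lost at a minimum count of 50 (0.0671), and scaling by library totals gave a log2 fold change of 0.24.

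Scarna10 carries both kinds of box and guides modification of the U5 spliceosomal RNA. The condensin gene Ncapd2 spans it (chromosome 6, 125186361 to 125186431). Its level was 385, 502 and 372 CPM in antisense against 603, 371 and 660 in sense. Sense replicate 2 was level with the lowest antisense library, the other 2 sense libraries were above all antisense libraries, and the log2 fold change of -0.38 (SE 0.172) did not pass (edgeR adjusted p = 0.143). Without sense replicate 2 it was -0.59 and passed (0.00392).

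The ratio of 2 genes within a library needs no scaling between libraries. The ratio of Scarna2 to Scarna10 counts was 2.16, 1.48 and 1.35 in antisense and 2.35, 2.51 and 2.95 in sense, so all sense libraries were above all antisense libraries. The ratio of Scarna2 to Scarna6 was 14.6, 13.1 and 5.89 in antisense and 16.0, 11.5 and 17.9 in sense, and overlapped. That of Scarna2 to Snord3b3 was 6.43, 4.82 and 2.20 in antisense and 7.58, 6.05 and 7.96 in sense, and overlapped too. So did the ratios of Scarna6 to Scarna10 and of Snora73b to Snora73a. These pairs were chosen after the values were seen and carry no test. The other 3 Scarna genes were not tested. Scarna9, a guide for U2, had 33 counts in antisense and 39 in sense, Scarna17 had 19 and 28, and Scarna8 had 6 and 5.

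**Figure D2:**
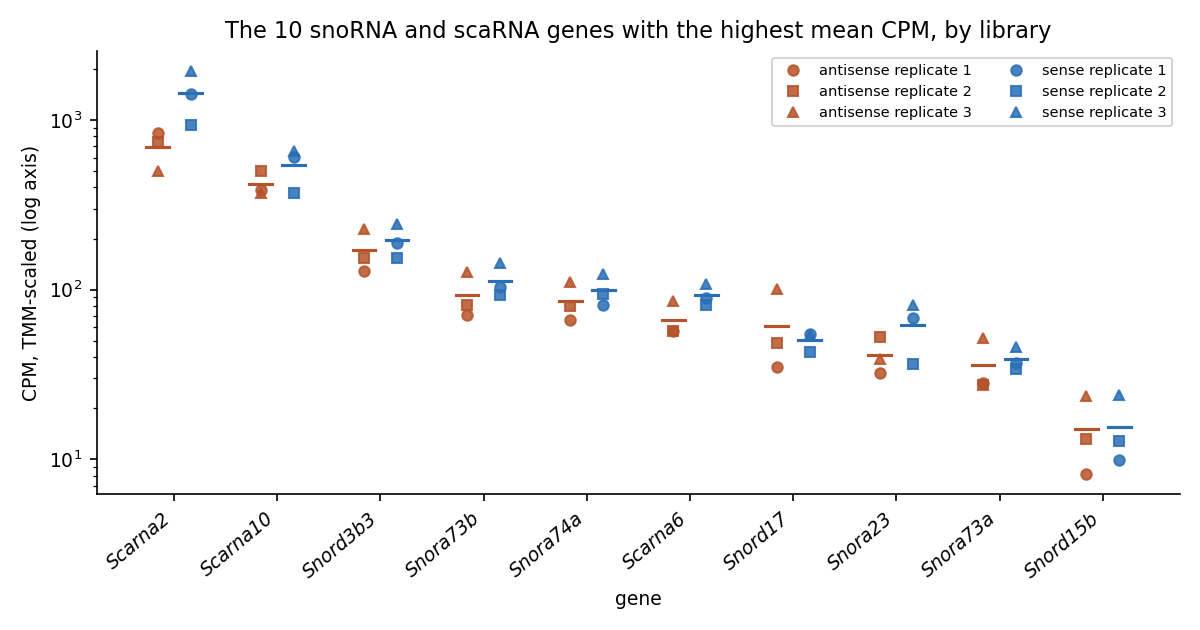
TMM-scaled CPM (log axis) of the 10 members with the highest mean CPM in each of the 6 libraries, with antisense in brown, sense in blue, one marker shape per replicate number, and bars at group means. Only Scarna2 has all 3 sense libraries above all 3 antisense libraries, and antisense replicate 3 is the highest antisense library for Snord3b3, Snora73b, Snora74a, Scarna6, Snord17, Snora73a and Snord15b.

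None of the 11 tested H/ACA snoRNA genes passed, against 4.35% lower and 18.2% higher of all tested genes. On the TMM scale all 11 had a negative log2 fold change, with a median of -0.58, against 51.6% negative of all tested genes. On library totals alone only Snora47, Snora57 and Snora68 stayed negative, at -0.21, -0.10 and -0.16. Snora23, which lies inside the importin gene Ipo7 (chromosome 7, 110046364 to 110046547), was at 32.2, 52.4 and 39.3 CPM in antisense against 67.8, 36.5 and 81.0 in sense. Sense replicate 2 lay inside the antisense range, and the log2 fold change was -0.58 (SE 0.226; edgeR adjusted p = 0.086). Snora23 passed without antisense replicate 2 (adjusted p = 0.0333), without sense replicate 2 (0.00171) and with no filter on low counts (0.0287).

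Snora73a and Snora73b are copies of the U17 snoRNA, which acts in cleavage of the ribosomal RNA precursor. Both lie within the noncoding host Snhg3 on chromosome 4, Snora73b from 132352322 to 132352526 and Snora73a from 132352775 to 132352979. Snora73b stood at 71.1, 81.3 and 128 CPM in antisense against 104, 92.7 and 143 in sense. Snora73a stood at 28.1, 27.5 and 51.9 CPM in antisense against 37.2, 34.2 and 46.2 in sense. In both copies the groups overlapped and antisense replicate 3 stood above the other antisense libraries. Their log2 fold changes were -0.28 (SE 0.190) and -0.13 (SE 0.204). Without antisense replicate 3 both passed as lower, at -0.57 (adjusted p = 0.0118) and -0.49 (0.0176). Counts of the 2 copies were not whole numbers, as happens when Salmon divides reads among similar transcripts, so the split between them is uncertain.

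Snora74a, the U19 snoRNA within the noncoding host Snhg4, was at 66.7, 79.9 and 110 CPM in antisense against 81.6, 93.8 and 123 in sense. The groups overlapped and it did not pass (log2 fold change -0.22, SE 0.169; edgeR adjusted p = 0.415), though it passed without antisense replicate 3 (0.0459). The other 7 tested Snora genes had mean levels of 1.22 to 3.42 CPM in antisense and 1.98 to 3.86 CPM in sense. In Snora47 and Snora21 all sense libraries were above all antisense libraries, as in 13.2% of all tested genes. Both rest on few counts. Snora47 had 3, 13 and 12 counts in antisense against 16, 12 and 16 in sense. Snora21 had 9, 10 and 12 against 12, 12 and 16. Before scaling these counts did not separate the groups. Snora47 was at 0.394, 1.67 and 1.61 CPM in antisense against 2.53, 1.87 and 2.74 in sense. Snora21, in the ribosomal protein gene Rpl23, was at 1.18, 1.28 and 1.61 CPM in antisense against 1.90, 1.87 and 2.74 in sense. Their log2 fold changes were -0.94 (SE 0.445; edgeR adjusted p = 0.156) and -0.66 (SE 0.362; 0.225). The remaining 5, Snora57, Snora68, Snora30, Snora17 and Snora81, overlapped between groups and had log2 fold changes of -0.87, -0.85, -0.69, -0.42 and -0.17. Snora57 passed without sense replicate 2 (-1.22, adjusted p = 0.0463).

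The 9 tested box C/D snoRNA genes went both ways and none passed, against 4.35% lower and 18.2% higher of all tested genes. A negative log2 fold change was seen for 6 and a positive one for 3, against 51.6% negative of all tested genes. The median of the 9 was -0.10. Several of them act in cutting the ribosomal RNA precursor and do not guide methylation, as is known for U3 (Snord3 genes), U8 (Snord118) and U22 (Snord22).

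Snord3b3, a copy of U3, was at 130, 154 and 228 CPM in antisense against 187, 154 and 244 in sense. The groups overlapped almost fully, and the log2 fold change was -0.19 (SE 0.184; edgeR adjusted p = 0.512). Without antisense replicate 3 it passed at -0.46 (0.0431). Snord3a, another copy, was far less counted, with means of 3.33 ± 1.29 and 4.94 ± 1.25 CPM for antisense and sense (SD, n = 3 each). Its log2 fold change was -0.56, and both copies had fractional counts in some libraries, so reads may have been split between them.

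Snord17, within the sorting nexin gene Snx5 on chromosome 2 from 144265982 to 144266202, had its highest value in antisense. It was at 34.8, 48.8 and 101 CPM in antisense against 55.2, 42.7 and 53.8 in sense. Antisense replicate 3 alone lay above the sense range, and without it the log2 fold change turned from 0.28 (SE 0.270) to -0.27. Snord15b, within the ribosomal protein gene Rps3, was at 8.20, 13.1 and 23.7 CPM in antisense against 9.91, 12.8 and 24.04 in sense. The 2 ranges nearly coincided, at a log2 fold change of -0.05 (SE 0.338). Snord15a, in the same host, averaged 4.08 ± 1.17 CPM in antisense against 2.81 ± 0.389 in sense (SD, n = 3 each), with a log2 fold change of 0.54 (SE 0.313).

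Snord94, which guides methylation of the U6 spliceosomal RNA, was at 5.26, 7.83 and 5.36 CPM in antisense against 10.6, 5.77 and 10.8 in sense. Sense replicate 2 again lay within the antisense range, and the log2 fold change of -0.55 (SE 0.264) passed only without that library (-0.80, edgeR adjusted p = 0.0243). Snord118 was at 1.84, 3.21 and 2.55 CPM in antisense against 1.58, 0.779 and 2.57 in sense, and the log2 fold change was 0.64 (SE 0.419; adjusted p = 0.322). Snord22, in the noncoding host Snhg1, stood at -0.32 and turned to 0.05 without sense replicate 1. Snord13, an independently transcribed gene that assists acetylation of ribosomal RNA, stood at -0.10 with an SE of 0.531.

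Over the 23 tested members, 2 were lower in antisense, 0 were higher and 21 did not pass. Of all tested genes, 4.35% were lower and 18.2% higher by the same rule. At an unadjusted p under 0.05, 4 members were lower and 0 higher, and DESeq2 called 2 lower and 0 higher. Groups did not overlap for 3 members, all with sense above, against 13.2% of all tested genes with sense above and 23.5% with antisense above. The log2 fold change was negative for 20 of the 23, against 51.6% of all tested genes, and the median was -0.38 against -0.01. On library totals alone the median was 0.38 against 0.70, and 6 members passed as higher and 0 as lower. The difference between the 2 medians was -0.36 on the TMM scale and -0.32 on library totals. The number of lower members rested on single libraries, being 1 when antisense replicate 1 or sense replicate 3 was left out and 6 when antisense replicate 3 or sense replicate 2 was.

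**Figure D3:**
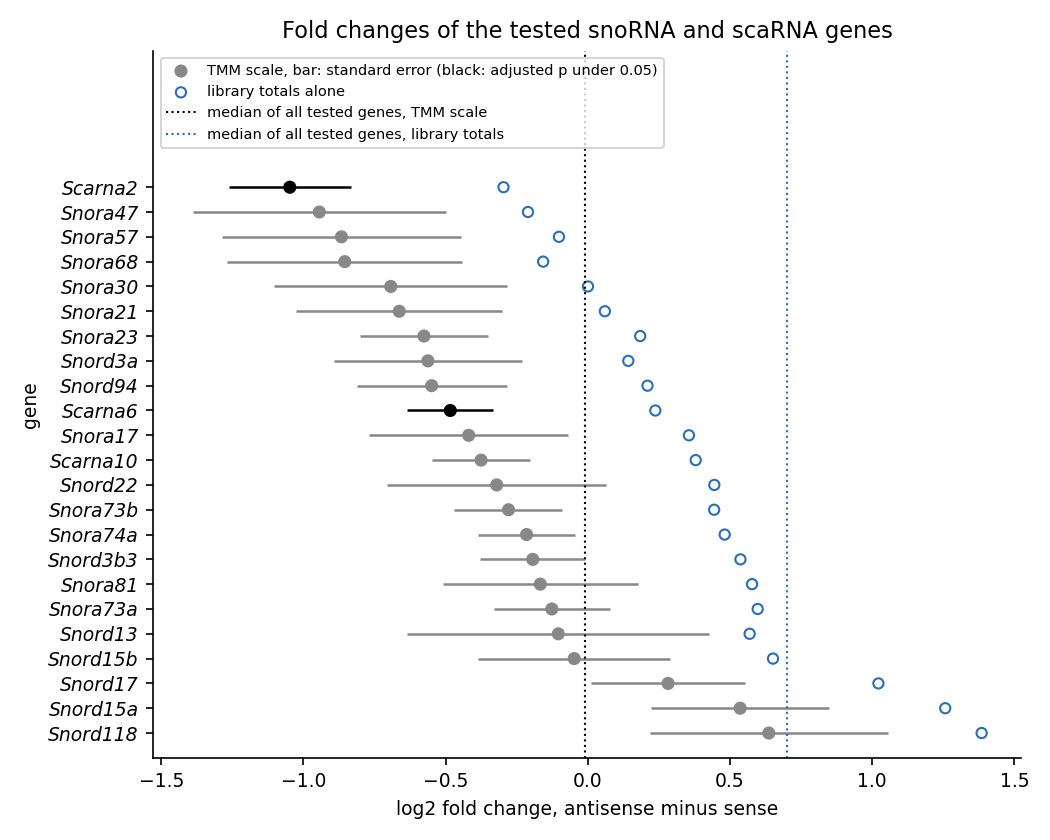
Log2 fold change, antisense minus sense, of the 23 tested members on the TMM scale (filled, bars are standard errors, black where the adjusted p was under 0.05) and on library totals alone (open), with dotted lines at the median of all tested genes on each scale. On the TMM scale 20 of 23 lie below 0, and on library totals 4 of 23 do.

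Single libraries stood out across members. Among the sense libraries replicate 3 was the highest for 20 of the 23 tested members and replicate 2 the lowest for 15. Among the antisense libraries replicate 3 was the highest for 14 and replicate 1 the lowest for 17. The Gas5 share in sense was highest in replicate 1 (57.1%) and lowest in replicate 2 (32.7%), so the orders matched at the bottom and not at the top. A link between them was not tested.

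As a share of counts outside Gas5, all members together made up 0.246%, 0.264% and 0.249% in antisense and 0.387%, 0.282% and 0.502% in sense. All sense libraries were above all antisense libraries, with means of 0.253% ± 0.00964 and 0.39% ± 0.11 (SD, n = 3 each). Without Scarna2 and Scarna10 the groups overlapped, at 480, 586 and 844 CPM in antisense against 711, 615 and 916 in sense. The 72 members that were counted but not tested showed no such order, since their summed level was 27.97, 36.7 and 37.9 CPM in antisense against 37.4, 34.3 and 39.8 in sense.

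**Figure D4:**
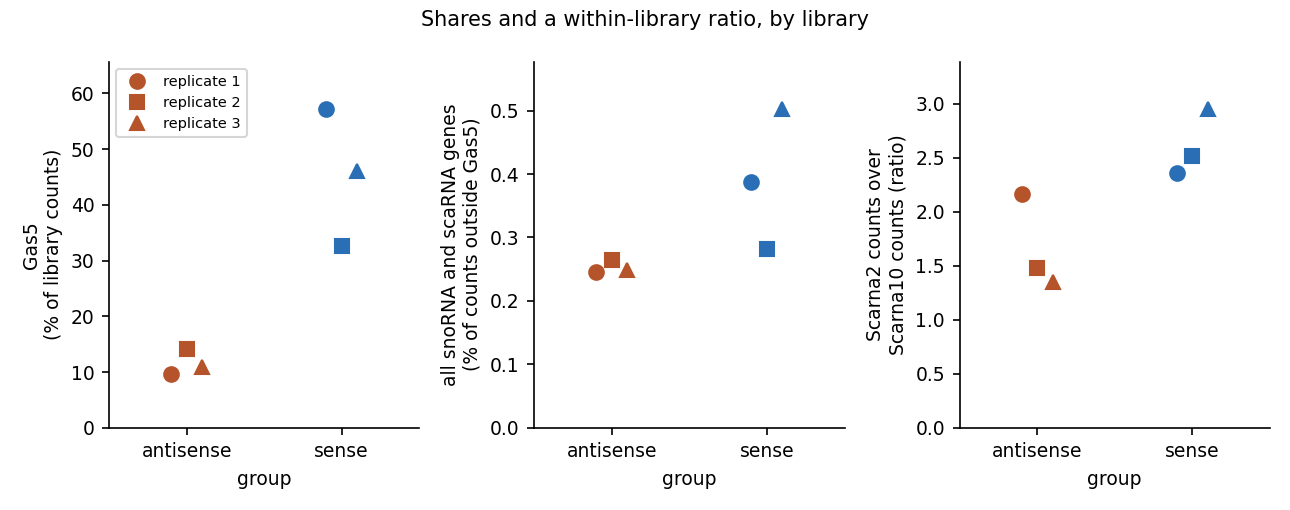
Gas5 as a percentage of library counts, all members as a percentage of counts outside Gas5, and the ratio of Scarna2 to Scarna10 counts, per library, by group and replicate number, with each axis from 0. In each panel the 3 sense libraries lie above the 3 antisense libraries. The plotted ratio was picked after the values were seen, and the other ratios computed overlapped between groups. The sense replicate with the highest Gas5 share (57.1%) is not the one with the highest member share (0.502%). The one with the lowest Gas5 share (32.7%) also has the lowest member share in sense (0.282%).

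Most members were counted too rarely to compare. The 72 counted but untested genes, 45 Snord, 24 Snora and 3 Scarna, had 0.706 to 72 counts summed over the 6 libraries, with a median of 15. They held 781 counts in antisense and 689 in sense. Counts were seen only in antisense for 5 of them and only in sense for 7, and each of these 12 had at most 6.21 counts in all. Among them was Snora35, an H/ACA snoRNA from an intron of the serotonin receptor gene Htr2c, with 2 counts in antisense and 0 in sense. Snord45c, in the prenyltransferase gene Rabggtb, had 6.21 counts, all in sense.

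Of the 15 tested host genes of tested members, 1 was lower, 0 were higher and 14 did not pass, against 4.35% lower and 18.2% higher of all tested genes. At an unadjusted p under 0.05, 3 hosts were lower and 1 higher. The one that passed was Snhg3, host of Snora73a and Snora73b, at 2.66, 4.66 and 2.69 CPM in antisense against 8.29, 5.77 and 8.86 in sense. Its groups did not overlap and its log2 fold change was -1.19 (SE 0.286; edgeR adjusted p = 0.00585), whereas the 2 snoRNAs it carries did not pass. On library totals Snhg3 missed the threshold (-0.46, adjusted p = 0.231). Around Scarna6, Atg16l1 was at 107.6, 106.0 and 108.6 CPM in antisense against 84.4, 100.1 and 104.5 in sense, which did not overlap, and its log2 fold change of 0.16 (SE 0.0969) did not pass (edgeR adjusted p = 0.289). Ipo7, around Snora23, had -0.29 (SE 0.112; 0.0835). Ncapd2, Snhg4, Rps3 and Snx5 had -0.17, -0.14, -0.15 and -0.23, and none passed. Whether a snoRNA and its host differed from each other was not tested. Whether counting used strand is not given in the sources used here, so reads of overlapping genes may not be told apart.

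Among genes for proteins that bind or assemble snoRNAs, 22 were listed and all were tested. Of the 22, 3 were higher in antisense and 0 were lower, against 18.2% higher and 4.35% lower of all tested genes, so the count does not set the list apart. The other 19 did not pass, and the median log2 fold change of the list was -0.06. Among the core components that did not pass, Nop56, Nop58 and Gar1 had -0.15, -0.16 and -0.32, while Nhp2 and Nop10 had 0.58 and 0.16. At an unadjusted p under 0.05, 3 were higher and 1 lower, and DESeq2 called 1 higher and 0 lower. Dkc1, which encodes dyskerin, the pseudouridine synthase of H/ACA particles, was at 25.6, 26.3 and 29.6 CPM in antisense against 15.4, 17.6 and 15.2 in sense. The groups did not overlap, the log2 fold change was 0.75 (SE 0.13; edgeR adjusted p = 0.000369), and Dkc1 passed whichever library was left out.

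Fbl, which encodes the methyltransferase fibrillarin of box C/D particles, was at 17.5, 16.4 and 19.2 CPM in antisense against 12.02, 14.1 and 13.1 in sense (log2 fold change 0.44, SE 0.147; edgeR adjusted p = 0.0426). Snu13, whose protein binds the folded box C/D motif, was at 16.1, 18.4 and 20.6 CPM in antisense against 10.96, 13.9 and 13.6 in sense (0.52, SE 0.159; 0.0265). Neither group pair overlapped, but without antisense replicate 3, sense replicate 1 or sense replicate 3 the adjusted p was 0.136, 0.152 and 0.102 for Fbl and 0.102, 0.125 and 0.0501 for Snu13. Fbl also missed the threshold without antisense replicate 1 (0.0949) and Snu13 without antisense replicate 2 (0.0594), and DESeq2 gave 0.114 and 0.0549.

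The authors' deposited table, which gives sense minus antisense, listed an adjusted p for 74 members, and 2 of these were under 0.05. They were Scarna6, with a log2 fold change of 0.49 (adjusted p = 0.0159), and Scarna2, with 1.05 (adjusted p = 0.0267), the genes called here and in the same direction. That table comes from the same libraries and is no separate evidence.

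The table also labels 1382 rows outside the naming rule as snoRNA or scaRNA, mostly under Gm names. Of these, 600 had a count and 57 were tested, of which 6 were higher in antisense, 4 were lower and 47 did not pass. Of all tested genes 18.2% were higher and 4.35% lower. The median of the 57 was -0.15. The 6 higher genes were rarely counted, and 5 of them had no count in any sense library, among them Gm25278, with 30, 39 and 28 counts in antisense. Gm22353, the other, had 1 count in sense replicate 1 and 0 in the other sense libraries. All 6 passed the filter on low counts through their antisense counts alone, so their number is no separate evidence of a difference. The most counted of the 10 that passed was Gm22009, at a mean of 205 CPM in antisense against 431 in sense (log2 fold change -1.07; edgeR adjusted p = 0.0148). Its groups overlapped, with sense replicate 2 (241 CPM) below antisense replicate 2 (313 CPM).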

How the data were processed

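The submitters' processing notes name Salmon, DESeq and build GRCm38 without versions. Index, kit and strand setting: not given in the sources used here. Values for total RNA were deposited by the authors as estimated counts per gene symbol. The authors' deposited comparison table gives a mean normalised signal, a test score, log2 fold changes, p-values and adjusted p-values, and was read side by side only. It holds no library values.

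Counts were rounded. Rows passing filterByExpr (minimum count 10) were scaled by TMM and tested with edgeR 4.0.16 (R 4.3.3) by its two-sided quasi-likelihood F test, antisense against sense, with Benjamini-Hochberg adjustment over all 20049 rows and a threshold of 0.05. DESeq2 1.42.0 was an alternative. Fold changes are antisense minus sense, and the SE is the size of the fold change over the square root of F. Counts were called whole within 0.0005. On simulated counts over 20049 genes of this comparison, the test recovered 26 of 67 genes at a 1.5-fold change, 49 of 67 at 2-fold and 63 of 66 at 4-fold, and made 10 false calls. Few genes were changed there, in random directions and at all levels. In the data 22.6% of tested genes were called, mostly as higher, so these rates do not describe the members.

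The members and lists were chosen with earlier results of these data known. Named are Gas5, the members within Gas5, those past the threshold, the 10 with the highest mean CPM, their hosts and the snoRNA-binding protein genes that passed; the other tested members and low-count examples were added after their values were seen. Positions came from RefSeq (GRCm38.p6) by symbol for 111 of 119 members. A host is a RefSeq gene spanning the member, strand unknown. No miRNA entry overlapped a member's span (0 found), so the small RNA libraries were not used here.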

Additional observations from a re-analysis of the deposited data

How the results depend on the processing

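On library totals alone 12804 genes were higher and 62 lower, in place of 3658 and 873, and 99.5% of calls were higher. Of the members, 6 were then higher and 0 lower, and 14 snoRNA-binding protein genes were higher. The log2 fold change changed sign there for Scarna10 (0.38), Scarna6 (0.24), Snora17 (0.36), Snora21 (0.0599), Snora23 (0.18), Snora30 (0.00054), Snora73a (0.60), Snora73b (0.44), Snora74a (0.48), Snora81 (0.58), Snord13 (0.57), Snord15b (0.65), Snord22 (0.44), Snord3a (0.14), Snord3b3 (0.54), Snord94 (0.21), Ncapd2 (0.56), Ipo7 (0.44), Snhg4 (0.61), Rps3 (0.57) and Snx5 (0.49); these totals include Gas5, and the median of all genes rose to 0.70. At a minimum count of 50, 1795 genes were higher and 402 lower and 1 member was lower, with fewer genes tested. DESeq2 called 1 snoRNA-binding protein gene higher. Size factors of the RLE type and leaving out Gas5 kept Scarna2 and Scarna6 as the members called.

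Leaving out 1 library gave 492 to 1100 lower genes, 1 to 6 lower members, and 1 to 3 higher and 0 to 1 lower snoRNA-binding protein genes. Ranges that crossed 0 were -0.49 to 0.027 for Snora73a, -0.49 to 0.0792 for Snora81, -0.58 to 0.49 for Snord13, -0.54 to 0.39 for Snord15b, -0.27 to 0.56 for Snord17, -0.55 to 0.054 for Snord22 and -0.35 to 0.12 for Snhg4. The cause was not tested. With the replicate number as a block, Scarna2 (-1.01) and Scarna6 (-0.50) passed, with 695 genes lower and 3428 higher, and of the members, hosts and protein genes called above Fbl alone lost its call (adjusted p = 0.0688). The numbers share no stated origin, and same-numbered libraries deviated together with correlations of 0.0622, -0.0756 and -0.00966 over all tested genes, so they were not taken as pairs. The planned test of miRNAs inside snoRNA genes was not run, as none was found. Depth limited 72 counted members to no test.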
